A study of Mus musculus with 12 samples.

Results

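The comparison set wild type mouse embryonic fibroblasts (MEFs) after 24 h of tunicamycin against the same kind of cells after 12 h. It rests on 4 arrays, 2 at each time, of the 12 in the series. The samples were chosen by their labels: XBP1WT cells given tunicamycin at 2 ug/mL over 12 h or over 24 h, paired by replicate number. MEFs are cultured connective tissue cells from embryos, and all cells of the series had the C57BL/6 background. The other 8 arrays held untreated XBP1WT cells and XBP1KO cells, which lack the transcription factor XBP1, untreated or treated for the same 2 times, with 2 arrays in each group. The labels do not say how many embryos the cells came from, so p-values measure the spread between these samples, which may be technical. The assay was a microRNA array of Agilent read in 1 colour, Cy3, from directly labelled total RNA.

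Tunicamycin blocks the first step of N-linked glycosylation, so that newly made proteins fail to fold in the endoplasmic reticulum. The unfolded protein response then starts from 3 sensors, IRE1, PERK and ATF6. IRE1 splices the mRNA of XBP1 and cuts other RNAs, PERK slows translation and leads to ATF4 and CHOP, and ATF6 is itself cut to release a transcription factor. Early output of these branches favours folding and survival, while prolonged stress favours cell death. MicroRNAs (miRNAs) are RNAs of about the length printed below that pair with mRNAs through a seed, bases 2 to 8 from the 5′ end, and lower their translation and stability. Each precursor hairpin gives a guide strand that is usually kept and a passenger strand, here named with an asterisk, that is usually degraded.

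The sequences below are mature miRNAs from RefSeq (assembly GRCm38.p6), 5′ to 3′, with the seed in capitals. Of the miRNAs that changed between 12 h and 24 h, 28 of the 48 that fell and 7 of the 8 that rose matched an entry by name. The miRNAs that rose are shown first, because they are the whole set of matched risers and hold several well known families. miR-29b is added to show that it shares its seed with miR-29a, and miR-92a to show that it shares its seed with miR-25.
miR-29a: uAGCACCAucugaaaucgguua
miR-29b: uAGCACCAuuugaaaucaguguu
miR-25: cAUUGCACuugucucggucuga
miR-92a: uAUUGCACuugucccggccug
miR-93: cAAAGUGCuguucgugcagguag
miR-30a: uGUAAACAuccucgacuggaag
miR-31: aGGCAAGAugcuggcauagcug
miR-31*: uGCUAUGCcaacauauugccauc
miR-24: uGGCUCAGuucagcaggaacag

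The next set fell. It holds the miRNAs that earlier studies tied to the unfolded protein response (miR-346, miR-211 and miR-204, of which miR-211 and miR-204 share a seed), 2 of the steepest falls with a RefSeq entry (miR-706 and miR-485*), and 4 fallers that hold alternating U and G.
miR-346: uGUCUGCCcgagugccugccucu
miR-211: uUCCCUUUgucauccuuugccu
miR-204: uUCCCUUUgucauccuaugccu
miR-706: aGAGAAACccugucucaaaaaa
miR-485*: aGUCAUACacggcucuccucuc
miR-1187: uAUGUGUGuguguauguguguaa
miR-574-5p: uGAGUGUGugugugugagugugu
miR-466j: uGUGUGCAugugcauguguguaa
miR-672: uGAGGUUGguguacuguguguga
The run UGUGUG, searched on the mature strand, was present in 6 of the 28 matched fallers (21.4%), namely miR-1187, miR-206, miR-294, miR-466j, miR-574-5p and miR-672. It was present in 0 of the 7 matched risers and in 28 of all 1674 mature sequences of the RefSeq set (1.67%). That set was not limited to the tested miRNAs, so the shares are over unlike sets. The run was chosen after the sequences had been seen, and its share is a description.

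Signals are on a log2 scale after each array was brought to a common 75th percentile, taken over 95 mouse miRNAs that every array detected. Signals under a floor of 3.33 were set to it. Tests covered the 256 mouse miRNAs with a detection call in both replicates of 1 group or more. A miRNA could enter through 12 h arrays alone, where it was high. Its fall from 12 h is then partly set by this filter. All 8 tunicamycin arrays lay on 1 slide, and within it all first replicates were read in one scan and all second replicates in another, per the file headers. The untreated arrays lay on a different slide, so untreated levels are printed as values only, since slide and treatment cannot be told apart there. Before scaling, the summed signal of mouse miRNAs was 32310 and 67423 at 12 h and 14076 and 32661 at 24 h, so that the 12 h array was 2.30 times as bright as its 24 h partner in the first replicate and 2.06 times in the second. The software detected 174 and 194 mouse miRNAs on the 12 h arrays and 120 and 158 on the 24 h arrays. The part of this drop in brightness in the differences below was not tested. Fewer cells of a type and less RNA per cell cannot be told apart in these bulk samples.

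The tissue label was set against marker miRNAs. Of the 9 fibroblast and mesenchymal markers with probes, 7 were detected on at least 1 of the 4 arrays. They included miR-21, at 13.38 and 13.28 at 12 h and 13.92 and 13.35 at 24 h. Among the dim markers, miR-143 was detected on 1 of the 12 h arrays and on neither 24 h array. miR-152 was not detected on any of the 4. None of the epithelial, endothelial, blood or liver markers was detected on any of the 4 arrays, among them the miR-200 family, miR-126, miR-142, miR-223, miR-451 and miR-122. The neural markers miR-9, miR-9* and miR-128 were at the floor on all 4 arrays. The muscle miRNA miR-206 and the embryonic stem cell miRNA miR-294 were detected on both 12 h arrays and on neither 24 h array, and are described with the fallers.

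Between 12 h and 24 h, 48 miRNAs fell (18.8% of the 256 tested) and 8 rose (3.12%), at an adjusted p below 0.05 in limma with Benjamini-Hochberg adjustment. That fit did not use the pairing by replicate number. The falls were large, from 0.73 to 4.91 on the log2 scale with a median difference of -2.88, and the rises were small, from 0.39 to 0.67, with 4 of the 8 negative when no scaling was applied. With normexp background correction, run with an offset of 50 added to each spot, the median of the fallers was -0.43. Such an offset by itself makes log2 differences of dim miRNAs smaller, but its part in this change was not tested. The median difference was 0.00 over all tested miRNAs, and 0.29 over the 154 miRNAs that all 4 arrays measured above the floor, so each rise was only 0.10 to 0.37 above that median. In all 48 fallers and all 8 risers, both replicates moved the same way and the 24 h arrays did not overlap the 12 h arrays. Over all tested miRNAs, the 24 h arrays lay entirely below the 12 h arrays in 28.5% and entirely above them in 27.3%. With the scan as a block on the 8 tunicamycin arrays, 5 miRNAs fell and 0 rose in limma, and 71 had an unadjusted p under 0.05. In a limma fit of the 4 arrays alone, 0 passed and 65 had an unadjusted p under 0.05. The number of fallers was 26 without the first 24 h array and 29 without the second 12 h array. The number of risers was 4 without the first 12 h array, 1 without the second 12 h array, 19 without the second 24 h array and 26 without either 24 h array of the knockout, which shares in the estimate of the spread.

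**Figure D1:**
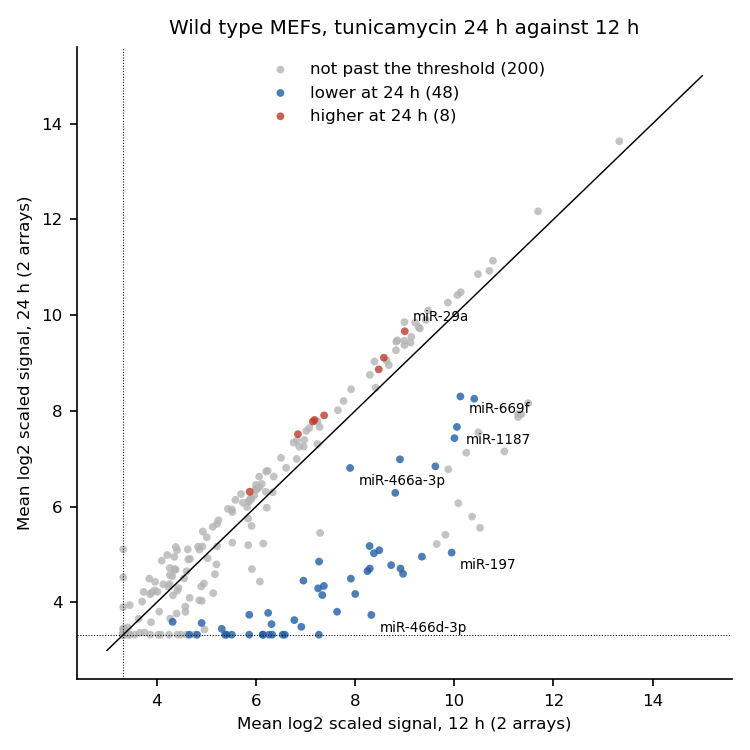
Mean log2 scaled signal of the 256 tested miRNAs in wild type MEFs at 12 h (horizontal axis) and 24 h (vertical axis) of tunicamycin, each point 1 miRNA and each mean over 2 arrays; the line marks equal signal and the dotted lines the floor of 3.33. The 48 fallers lie below the line, many of them on or near the floor at 24 h, and the 8 risers lie close above it among many miRNAs that did not pass.

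The steepest falls were of miRNAs that were bright at 12 h and close to or at the floor in untreated cells. miR-197 was at 9.72 and 10.18 at 12 h, and at the floor of 3.33 and at 6.76 at 24 h. It was at the floor on both untreated arrays. The 24 h arrays lay below both 12 h arrays but far from each other, and the difference was -4.91 (SE 1.27, n = 2 against 2, limma adjusted p = 0.0319).

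miR-466d-3p, of a rodent family described below, stood at 7.96 and 8.70 at 12 h and at 3.33 and 4.15 at 24 h. Both 24 h arrays lay far below both 12 h arrays, and the software detected it on neither. It was at least 16.1-fold lower at 24 h (measured difference -4.59, SE 0.40, adjusted p = 0.000779). A bound of this kind sets the 12 h mean against the lowest detected signal of each 24 h array, or against the miRNA's own signal there where that was higher, because a miRNA that is not detected has only an upper limit. Before scaling, its signal was 116 and 361 at 12 h and -8.79 and 11.9 at 24 h, where a negative value means less light than the local background.

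miR-1894-5p was at 9.02 and 9.67 at 12 h and at 3.33 and 6.58 at 24 h, a difference of -4.39 (SE 1.18, adjusted p = 0.0378). miR-485*, from the Dlk1-Dio3 imprinted cluster, was at 8.56 and 9.38 at 12 h and at 3.33 and 5.87 at 24 h, a difference of -4.37 (SE 1.00, adjusted p = 0.0210). In both, the first 24 h array was at the floor and the second was not, and the groups did not overlap. miR-706 was at 6.74 and 7.80 at 12 h and at the floor on both 24 h arrays, at least 11.5-fold lower (adjusted p = 0.000572). miR-764-5p was at 7.26 and 8.75 at 12 h and at 3.33 and 5.03 at 24 h, at least 9.46-fold lower (adjusted p = 0.0142).

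Most of the 48 fallers were at the floor in untreated cells, and few were detected on both arrays at 24 h. On both untreated arrays 30 of them were at the floor, and the share over all tested miRNAs was not counted. Since miRNAs could enter the tests through the 12 h arrays alone, these counts are partly set by the filter. At 12 h, 44 were detected on both arrays and 4 on 1. At 24 h, 8 were detected on both arrays, 14 on 1 and 26 on neither. For these 26 the fall is a bound (for miR-294 it equals the measured difference), from at least 1.24-fold for miR-434-3p to at least 16.1-fold for miR-466d-3p, with a median bound of 5.29-fold. Where a miRNA was detected on 1 of the 12 h arrays, the 12 h mean includes an undetected signal and the bound is not strict. The 24 h arrays were at the floor in both replicates for 13 of the 48 and in the first replicate alone for 15 more. Over all 256 tested miRNAs, 91 were at the floor on the first 24 h array and 65 on the second. Values at the floor have no spread, so the SE of such miRNAs is too small.

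**Figure D2:**
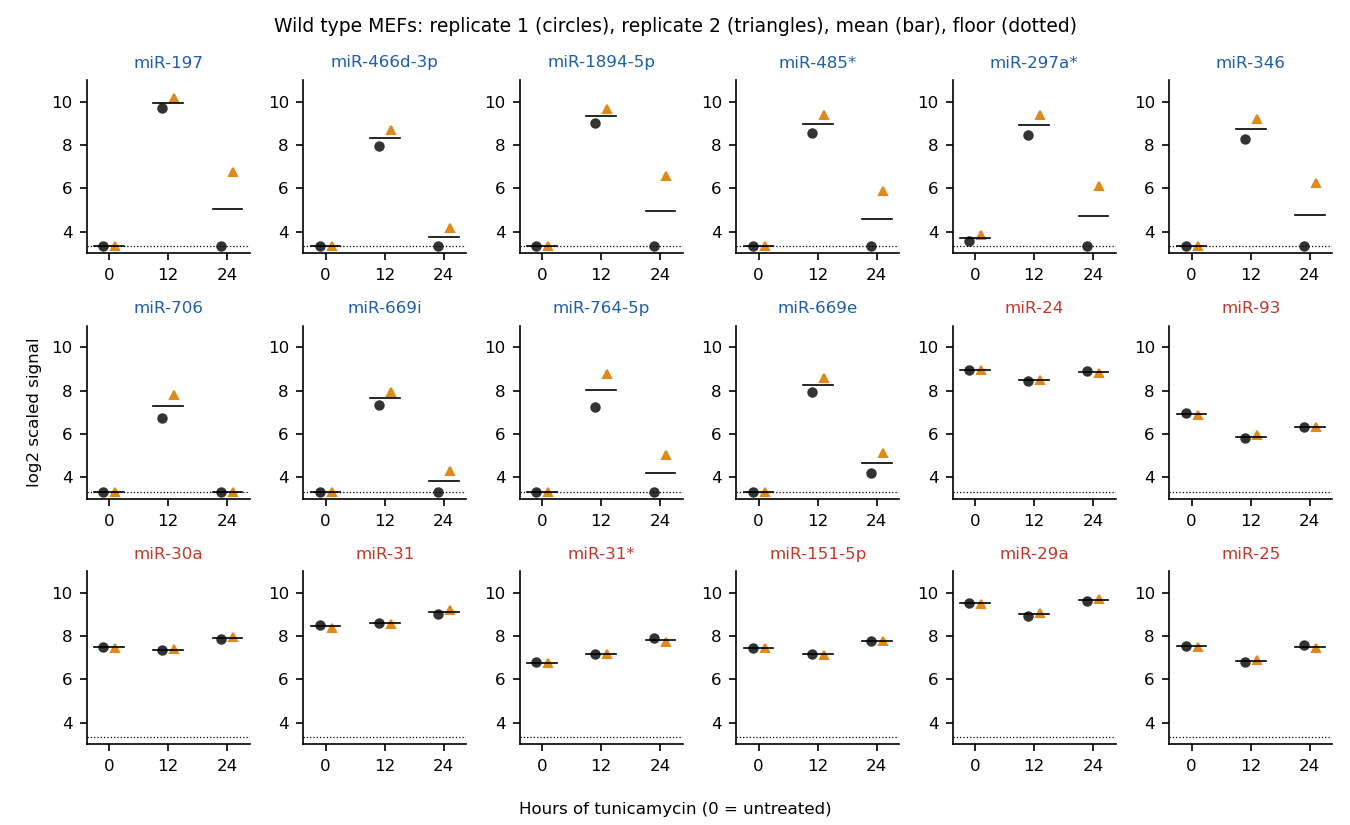
log2 scaled signal of the 10 steepest fallers (blue names) and the 8 risers (red names) in wild type MEFs on each array, untreated (0) and after 12 h and 24 h of tunicamycin; circles are replicate 1, triangles replicate 2, bars the mean of 2 arrays and the dotted line the floor of 3.33. The fallers are highest at 12 h, with miR-706 at the floor on both 24 h arrays, while the risers move by 0.67 or less, a rise that turned negative for 4 of them without scaling.

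The 2 replicates moved the same way in every faller. The median difference of the 48 fallers was -2.50 in the first replicate and -3.13 in the second. The second 12 h array was the higher of the pair in 47 of the 48, and the second 24 h array in 30 of the 48. In 10 of the 48 the 24 h arrays differed from each other by over 1 on the log2 scale, and those include miR-197, miR-1894-5p, miR-485* and miR-346.

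**Figure D3:**
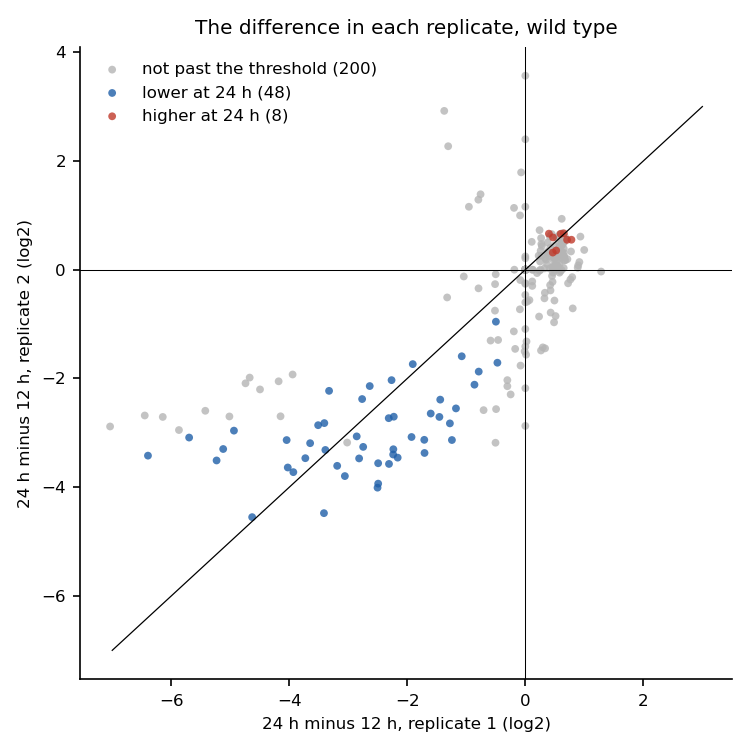
Difference of 24 h minus 12 h (log2) in replicate 1 (horizontal axis) and replicate 2 (vertical axis) for the 256 tested miRNAs; points are coloured by whether they passed and the diagonal marks equal differences. All 48 fallers are negative in both replicates and all 8 risers are positive in both.

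The families named miR-297, miR-466, miR-467 plus miR-669 lie mostly in an intron of Sfmbt2, an imprinted Polycomb gene of rodents, and were the most numerous group among the fallers. Of 29 tested members, 16 fell, 0 rose and 13 did not pass, beside 18.8% falling and 3.12% rising over all tested miRNAs. The median difference was -3.00, beside 0.00 over all tested miRNAs, and -2.94 with undetected members at their bound. With normexp background correction the median was -0.82. In RefSeq, 24 of the 29 have a gene on the chromosome of Sfmbt2, and miR-466i, miR-466j, miR-467f and miR-467g have genes on other chromosomes only. Many members differ by few bases, so their probes can bind one another's miRNAs and the 16 calls are not independent.

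miR-669a was detected on all 4 arrays, at 8.62 and 9.19 at 12 h and at 7.18 and 6.80 at 24 h. Both 24 h arrays were low, below both untreated arrays at 7.83 and 7.85, and the difference from 12 h was -1.92 (SE 0.31, adjusted p = 0.00612). miR-669f was at 10.00 and 10.25 at 12 h and at 8.09 and 8.51 at 24 h, a difference of -1.82 (SE 0.41, adjusted p = 0.0199). Its untreated arrays read 9.16 and 8.98, so the 24 h arrays again lay below both untreated ones.

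miR-669b was at 6.998 and 7.75 at 12 h and at 4.50 and 4.19 at 24 h, a difference of -3.03 (SE 0.37, adjusted p = 0.00243), with untreated arrays at 5.14 and 5.36. miR-466a-3p was at 7.63 and 8.18 at 12 h and at 7.15 and 6.46 at 24 h, a difference of -1.09 (SE 0.26, adjusted p = 0.0231), with untreated arrays at 8.26 and 8.25. These 4 were the fallers whose 24 h arrays both lay below both untreated arrays, a position held by 33.6% of all tested miRNAs, and miR-669f and miR-466a-3p were chosen for mention after their values had been seen. In 15 of the 48 fallers the 24 h arrays both lay above both untreated arrays, as in 20.7% of all tested.

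Beside miR-466d-3p, the steepest falls among family members that passed were of miR-297a*, miR-669i and miR-669e. miR-297a* was at 8.45 and 9.39 at 12 h and at 3.33 and 6.09 at 24 h, a difference of -4.21 (SE 1.07, adjusted p = 0.0296). miR-669i was at 7.35 and 7.92 at 12 h and at 3.33 and 4.28 at 24 h, at least 9.49-fold lower (adjusted p = 0.000896). miR-669e was at 7.94 and 8.56 at 12 h and at 4.21 and 5.10 at 24 h, a difference of -3.60 (SE 0.54, adjusted p = 0.00485). In each of these 3 the 24 h arrays lay below both 12 h arrays.

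The smallest p-values in these families belonged to members near or at the floor at 24 h. miR-466l, at 6.07 and 6.59 at 12 h and at the floor on both 24 h arrays, had the smallest adjusted p of all tested miRNAs, 6.1e-05, and was at least 6.00-fold lower. miR-466j was at 6.38 and 7.45 at 12 h and at 3.33 and 3.66 at 24 h, at least 7.17-fold lower (adjusted p = 0.000896). miR-466h, above the floor on all 4 arrays, was at 8.08 and 8.90 at 12 h and at 4.89 and 5.29 at 24 h, a difference of -3.40 (SE 0.60, adjusted p = 0.00934).

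Of the 13 members that did not pass, 8 had differences below -2 with a large SE. Over all tested miRNAs, 13 that did not pass had differences below -2, from -4.96 to -2.94. Their SE ran from 0.97 to 1.82 and their adjusted p from 0.0666 to 0.246, and all 13 were negative in both replicates. One of them outside the families was miR-877*, a strand of a short intron hairpin, at 11.48 and 11.22 at 12 h and at 7.33 and 8.53 at 24 h (difference -3.42, SE 1.23, adjusted p = 0.0951). The only family member with a positive difference was miR-467b, at 0.11.

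Passenger strands formed the next group, with 12 of 35 tested falling and 1 rising, beside 18.8% and 3.12% of all tested miRNAs. Their median difference was -0.12, beside 0.00 over all tested. The array held 115 passenger strands, most of them not tested. In wild type cells let-7b*, let-7g*, miR-15a* and miR-18a* were detected on the 12 h arrays only. A fall was thus partly set by how such strands entered the tests. Of the 12 that fell, miR-297a* and miR-467a* also belong to the families above. Several came from hairpins whose guide strand did not pass. let-7d* was at 7.77 and 8.99 at 12 h and at 4.38 and 5.68 at 24 h, a difference of -3.35 (SE 0.78, adjusted p = 0.0220), while the guide let-7d had a difference of 0.38 (adjusted p = 0.332). let-7g* was at 5.57 and 6.73 at 12 h and at the floor on both 24 h arrays, at least 5.28-fold lower (adjusted p = 0.00200), while let-7g had a difference of 0.53 (adjusted p = 0.0940). miR-15a* was at 6.14 and 7.41 at 12 h and at 3.33 and 3.94 at 24 h, at least 5.89-fold lower (adjusted p = 0.00536), while miR-15a had a difference of 0.28 (adjusted p = 0.393). The difference between the arms of a hairpin was not tested. The other passenger strands that fell were let-7b*, let-7f*, miR-16*, miR-18a*, miR-483*, miR-485* and miR-872*.

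The remaining 22 fallers were neither named with an asterisk nor members of those families. Arms named -3p or -5p were not sorted into guide and passenger strands. They included miR-328, at 7.88 and 8.72 at 12 h and 3.83 and 5.58 at 24 h, a difference of -3.59 (SE 0.77, adjusted p = 0.0175). miR-672 was at 7.71 and 8.12 at 12 h and at 4.06 and 4.93 at 24 h, a difference of -3.42 (SE 0.50, adjusted p = 0.00468). Both 24 h arrays of miR-672 lay above the untreated ones, which were at the floor. miR-1187 and miR-574-5p, whose sequences are long alternations of U and G, were detected on all 4 arrays. miR-1187 was at 10.00 and 10.11 at 12 h and at 7.36 and 7.97 at 24 h (difference -2.39, SE 0.69, adjusted p = 0.0476). miR-574-5p was at 10.32 and 10.49 at 12 h and at 8.05 and 8.46 at 24 h (difference -2.15, SE 0.58, adjusted p = 0.0380).

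miRNAs tied in earlier work to the unfolded protein response, by way of PERK, ATF6, CHOP or XBP1, were followed as a list, of which 5 were tested. 3 fell, 1 rose and 1 did not pass, beside 18.8% falling and 3.12% rising over all tested miRNAs. The median difference of the 5 was -1.33. miR-346, which has been described as induced by XBP1 and as lowering the peptide transporter TAP1, was at 8.26 and 9.19 at 12 h and at 3.33 and 6.23 at 24 h. Both untreated arrays were at the floor, and the difference from 12 h was -3.95 (SE 1.11, adjusted p = 0.0429). In XBP1KO cells miR-346 was at 8.87 and 8.68 at 12 h and at 3.33 and 6.07 at 24 h, a difference of -4.07.

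miR-211, described as a PERK-dependent miRNA that lowers CHOP, was at 6.24 and 7.68 at 12 h and at 4.31 and 4.60 at 24 h. It was detected on neither 24 h array and was at least 5.31-fold lower (adjusted p = 0.0158). miR-204, which has the same seed, was at 4.12 and 5.20 at 12 h and at the floor on both 24 h arrays, at least 1.88-fold lower (adjusted p = 0.0220). Only 1 of its 12 h arrays had a detection call, so its 12 h mean includes an undetected signal and the bound is not strict. The sequences of miR-211 and miR-204 printed above are nearly the same. Their probes can bind one another's miRNA, so these calls may not be independent. The remaining members, miR-25 and miR-106b, come from 1 hairpin cluster in an intron of Mcm7. miR-25 rose, as given below, and miR-106b had a difference of 0.56 (adjusted p = 0.127).

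miRNAs whose precursors have been described as cut by IRE1 did not pass in any of the 3 tested cases, miR-34a, miR-96 and miR-125b-5p, with a median difference of 0.42. miR-34a, a p53 target, was at 6.99 and 7.04 at 12 h and at 7.62 and 7.55 at 24 h, a difference of 0.56 (SE 0.31, adjusted p = 0.246). The 24 h arrays did lie above the 12 h arrays in miR-34a. Beside 18.8% of all tested miRNAs, 1 of 4 tested members of the miR-34 family fell. This was miR-34b-3p, at 5.83 and 7.33 at 12 h and at the floor on both 24 h arrays, at least 7.15-fold lower (adjusted p = 0.00272).

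In the Dlk1-Dio3 imprinted cluster, a large maternally expressed miRNA locus, 3 of 16 tested members fell and 0 rose, with a median difference of -0.07. This share is that of all tested miRNAs, of which 18.8% fell. Beside miR-485*, these were miR-667, at 4.78 and 6.03 at 12 h and at the floor on both 24 h arrays (at least 3.17-fold lower, adjusted p = 0.0146), and miR-434-3p. miR-434-3p was at 4.15 and 4.49 at 12 h and at 3.65 and 3.54 at 24 h, at least 1.24-fold lower (adjusted p = 0.00468). Among Hox cluster miRNAs 1 of 5 fell, miR-615-3p, at 5.82 and 7.26 at 12 h and at the floor on both 24 h arrays, at least 6.94-fold lower (adjusted p = 0.00243).

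Of the markers of other cell types 2 of the 6 tested fell, miR-206 and miR-294, beside 18.8% of all tested miRNAs. miR-206, a skeletal muscle miRNA, was at 5.04 and 6.70 at 12 h and at the floor on both 24 h arrays, at least 4.35-fold lower (adjusted p = 0.0106). miR-294, of the cluster that marks mouse embryonic stem cells, was at 6.76 and 7.79 at 12 h and at 5.04 and 4.67 at 24 h, where it was not detected, a measured difference of -2.42 (SE 0.49, adjusted p = 0.0146). miR-206 was the 1 muscle marker tested and both fallers were at the floor on the untreated arrays. The other stem cell marker tested, miR-290-5p, was at the floor on both 12 h arrays and at 3.33 and 3.57 at 24 h (difference 0.12, adjusted p = 0.594), and the differences of the 3 neural markers were 0.00. miR-291b-5p, of the cluster of miR-294 but outside the list's names, was at 5.49 and 6.78 at 12 h and at the floor on both 24 h arrays, at least 5.25-fold lower (adjusted p = 0.00832), and is named after its values were seen.

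The 8 risers were miRNAs detected on every one of the 12 arrays, with rises of 1.31-fold to 1.59-fold on the scaled signal. miR-29a, which lowers collagens and other matrix proteins in fibroblasts, was at 8.95 and 9.06 at 12 h and at 9.60 and 9.73 at 24 h. Both 24 h arrays were high, near the untreated 9.53 and 9.47, and the difference was 0.66 (SE 0.10, adjusted p = 0.00468). Before scaling, its signal was 230 and 463 at 12 h and 205 and 566 at 24 h. miR-29b and miR-29c, which have the same seed, had differences of 0.62 (adjusted p = 0.0755) and 0.78 (adjusted p = 0.0927) and did not pass.

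In the miR-17~92 cluster and its relatives, known for promoting proliferation, 2 of 9 tested members rose and 0 fell. Over all tested miRNAs 3.12% rose and 18.8% fell. The median difference of the 9 was 0.58 (-0.02 without scaling). miR-25 was at 6.82 and 6.88 at 12 h and at 7.60 and 7.43 at 24 h, a difference of 0.67 (SE 0.15, adjusted p = 0.0184), which turned to -0.66 with the software's total gene signal and to -1.07 in the authors' deposited table. miR-93 was at 5.80 and 5.95 at 12 h and at 6.33 and 6.30 at 24 h, a difference of 0.44 (SE 0.11, adjusted p = 0.0321). The other 7 differences were positive without passing, and the 9 ran from 0.44 to 0.67. miR-92a, with the seed of miR-25, had a difference of 0.62 (adjusted p = 0.0951).

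Both arms of miR-31 rose. The guide was at 8.61 and 8.55 at 12 h and at 9.01 and 9.22 at 24 h, a difference of 0.53 (SE 0.13, adjusted p = 0.0226). miR-31* was at 7.18 and 7.19 at 12 h and at 7.89 and 7.74 at 24 h, a difference of 0.63 (SE 0.13, adjusted p = 0.0146). miR-151-5p, from an intron of the focal adhesion kinase gene Ptk2, was at 7.17 and 7.13 at 12 h and at 7.76 and 7.79 at 24 h, also a difference of 0.63 (SE 0.12, adjusted p = 0.0146).

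miR-30a, which lowers the autophagy protein Beclin 1, was at 7.37 and 7.38 at 12 h and at 7.84 and 7.97 at 24 h, a difference of 0.53 (SE 0.10, adjusted p = 0.0117). miR-24, of the miR-23/27/24 clusters, was at 8.45 and 8.50 at 12 h and at 8.92 and 8.82 at 24 h, a difference of 0.39 (SE 0.09, adjusted p = 0.0242). In 6 of the 8 risers, all but the pair of miR-31 arms, the 12 h arrays lay below both untreated arrays, as they did in 46.5% of all tested miRNAs. In 5 of the 8 both 24 h arrays lay above both untreated arrays (20.7% of all tested), and in miR-93 and miR-24 both lay below them (33.6% of all tested). These comparisons cross slides, and the median of 12 h minus untreated was -0.34 over the miRNAs measured above the floor on all 4 wild type tunicamycin arrays.

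The rises depended on how the arrays were scaled, and their direction was not the same under every scaling. Without any scaling, 4 of the 8 differences were negative (miR-24, miR-93, miR-30a and miR-31) and 4 positive. With the total gene signal miR-25 and miR-30a were negative, and in the authors' deposited table these 2, miR-24, miR-31 and miR-93 were. In the fit without any scaling 0 miRNAs rose in limma, and 54 had an unadjusted p under 0.05 in either direction. Under quantile normalization 63 miRNAs rose and 41 fell, and with the percentile taken over all mouse miRNAs 47 rose and 46 fell. Those scalings raised the median of those 154 measured miRNAs from 0.29 to 1.08 and 0.98, and without scaling it was -0.25. With normexp background correction 1 miRNA rose and 22 fell. All 48 differences of the fallers were negative with normexp and without scaling, and their median with normexp was -0.43 in place of -2.88. Leaving out scaling gave a median of -2.68, with 23 falls.

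Families of guide strands had small positive differences that mostly did not pass. All 9 tested let-7 members had differences between 0.35 and 0.55, none passed, and their median was 0.39, which became -0.21 without scaling and 1.11 under quantile normalization. Without scaling, the medians of the lists in the next sentence were negative too. In the miR-30 family 1 of 5 rose, with a median of 0.36, in the miR-23/27/24 clusters 1 of 5 rose, with a median of 0.44, and in the miR-15/16 family 0 of 6 changed, with a median of 0.30. The rising share over all tested miRNAs was 3.12%. The median over the 95 miRNAs that every array detected was 0.36. Of the fibroblast markers 1 of 8 rose, miR-29a, and their median was 0.30. miR-21 itself had a difference of 0.30 (SE 0.20, adjusted p = 0.332).

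**Figure D4:**
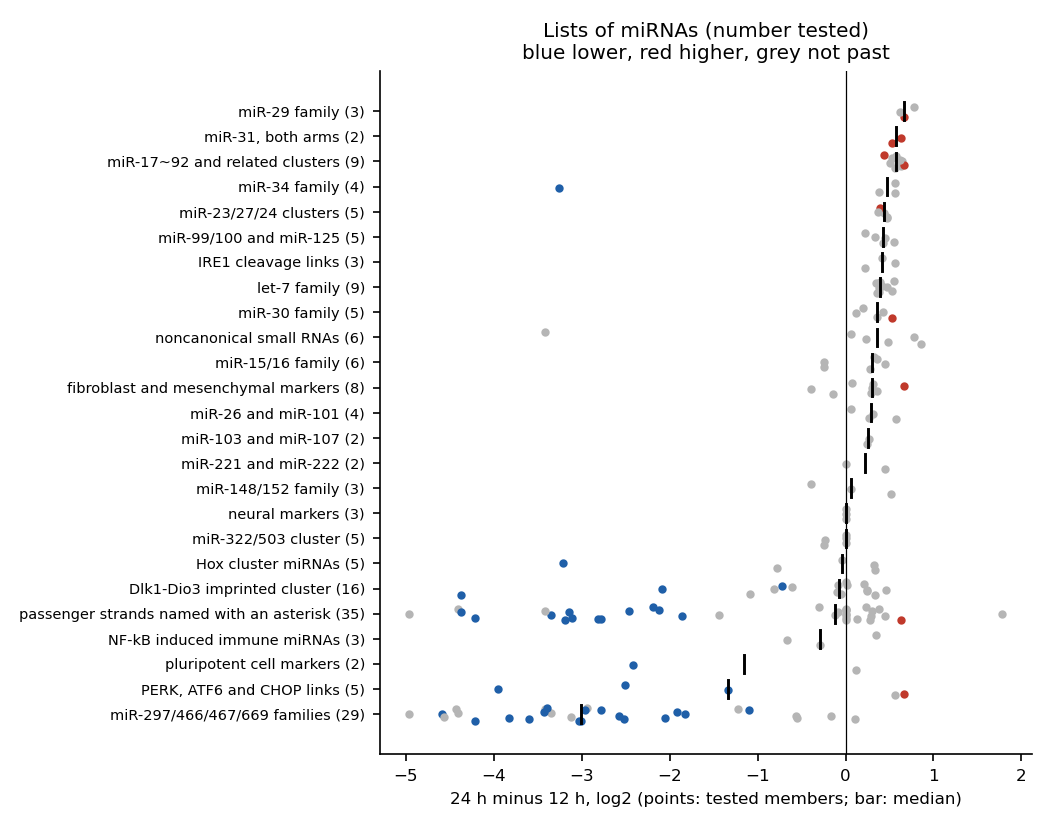
Difference of 24 h minus 12 h (log2, horizontal axis) of the tested members of each list with at least 2 tested, with the number tested in brackets; points are miRNAs, coloured by whether they fell (blue), rose (red) or did not pass (grey), and the bar is the median. The families of the Sfmbt2 intron have a median of -3.00, and the let-7, miR-30 and miR-17~92 lists have medians of 0.39, 0.36 and 0.58, all negative without scaling.

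XBP1KO cells, treated and measured on the same slide in the same 2 scans, give the same contrast without XBP1. There, 101 miRNAs changed between 12 h and 24 h (39.5% of those tested), of which 56 fell (21.9%) and 45 rose (17.6%). In wild type 56 changed in all (21.9%). Both genotypes share the estimate of the spread of each miRNA and the filter for testing, so their calls are not independent. Of the 48 wild type fallers, 46 also fell in the knockout, which is 95.8% of the wild type list and 82.1% of the knockout list. The exceptions were miR-1896 and miR-434-3p, with knockout differences of -0.87 (adjusted p = 0.0810) and -0.09 (adjusted p = 0.611). All 8 wild type risers also rose in the knockout, by 0.44 to 0.83, and made up 17.8% of its risers. In the families of the Sfmbt2 intron 18 of 29 fell in the knockout, with a median of -3.19.

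The test of the difference between the genotypes called 0 of 256 miRNAs in limma, and 10 had an unadjusted p under 0.05. The smallest adjusted p was 0.0650, for miR-152. For the 48 fallers the median of wild type minus knockout was 0.08 on the log2 scale, and 1 of the 48, miR-434-3p, had an unadjusted p under 0.05 (-0.64, SE 0.15). The count of 0 called between the genotypes, over all 256 miRNAs, depended on single arrays. It was 22 without the first and 12 without the second wild type 12 h array, 7 without the first wild type 24 h array, 43 without the first and 3 without the second knockout 24 h array, and 1 without the second knockout 12 h array.

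**Figure D5:**
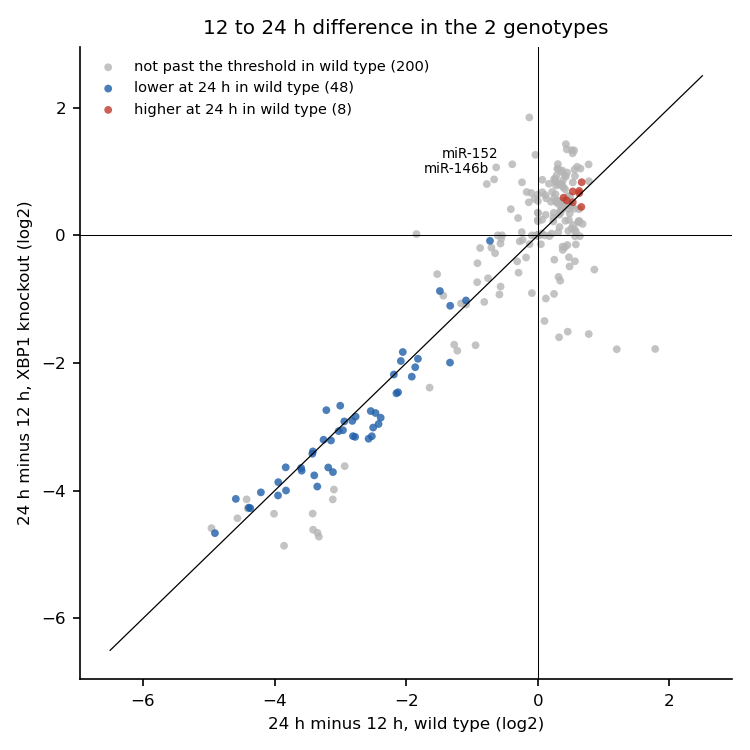
Difference of 24 h minus 12 h (log2) in wild type (horizontal axis) and XBP1 knockout MEFs (vertical axis) for the 256 tested miRNAs, coloured by the call in wild type; the diagonal marks equal differences. The 48 wild type fallers lie near the diagonal below 0 in both genotypes, and the labelled miR-152 and miR-146b are below 0 in wild type and above 0 in the knockout.

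The 12 h arrays also enter the comparison of 12 h with untreated cells, so the 2 comparisons share them and their values are set side by side only. For miR-197 the difference of 12 h minus untreated was 6.62 and that of 24 h minus 12 h was -4.91. For miR-346 the values were 5.40 and -3.95, for miR-211 3.63 and -2.50, and for miR-669a 1.07 and -1.92. For miR-29a they were -0.50 and 0.66, and for miR-93 -1.04 and 0.44. The median of the families of the Sfmbt2 intron was 3.59 at 12 h against untreated.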

How the data were processed

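Per the file headers, the deposited scanner output gives an intensity for each spot, background-subtracted by Agilent Feature Extraction (version 10.7.1.1), and arrays were not normalized to each other. The series table holds log2 values that the authors deposited, equal to the logarithm of that software's total signal per miRNA. The authors' further steps are not given in the sources used here.

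Processed intensities of non-control, non-outlier spots were averaged per probe and summed per miRNA. Arrays were scaled to the 75th percentile over 95 miRNAs detected on all 12 arrays, floored at 10.0 (3.33 in log2, the 5th percentile of detected signals) and log2 transformed. limma 3.58.1 (R 4.3.3; lmFit, eBayes with a trend) was fitted to all 12 arrays with 6 group means and 6 residual degrees of freedom, and p-values were Benjamini-Hochberg adjusted over 256 miRNAs with a threshold of 0.05. The small number of arrays limits the precision. The script was tested on simulated data.

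Replicate numbers mark the scan within the slide, per the file headers, so 24 h and 12 h arrays are paired. The main fit had no block for scan or replicate, so its p-values and counts leave this pairing out. Deviations of same-numbered wild type arrays correlated at 0.18, and at -0.08 to 0.52 among the 4 tunicamycin groups. Normexp used median spot signals, because these files hold no mean signal, and an offset of 50. The planned slide block became a scan block on the 8 tunicamycin arrays, which share a slide.

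The members and lists were chosen with earlier results of these data known. Named miRNAs were the 10 largest differences in each direction among those that passed with a detection call in both replicates at 1 time, the 10 smallest p above the floor on all 4 arrays, up to 4 smallest p per list, up to 10 past the threshold between genotypes, and the 6 brightest. Others are named where a count is small or the text says so.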

Additional observations from a re-analysis of the deposited data

Results flagged for a closer look

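miR-152 and miR-146b had differences of opposite sign in the 2 genotypes, negative in both wild type pairs and positive in both knockout pairs. Over all 256 tested miRNAs 5 had this pattern, the others being miR-143, miR-342-3p and miR-350, named after their values were seen. None had the reverse pattern. Neither wild type difference passed (limma adjusted p = 0.129 for miR-152 and 0.307 for miR-146b). miR-152 was detected on 0 of the 4 wild type tunicamycin arrays, at 3.84 and 3.68 at 12 h and at 3.33 and 3.41 at 24 h, and its wild type difference was 0.00 without scaling, under quantile normalization and with the total gene signal. In the knockout it was at the floor at 12 h and at 4.25 and 4.63 at 24 h. Wild type minus knockout was -1.50 (SE 0.22, adjusted p = 0.0650), which did not pass. miR-146b was at 4.69 and 4.46 at 12 h and at 4.50 and 3.33 at 24 h in wild type. In the knockout it was at 4.51 and 3.73 at 12 h and at 4.94 and 5.05 at 24 h. Wild type minus knockout was -1.54 (SE 0.58, adjusted p = 0.928), which did not pass.

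2 viral probe sets, which no comparison used, gave signal above the untreated arrays. mghv-miR-M1-2, named for a murine herpesvirus, had a mean of 8.99 at 12 h (9.39 and 8.59), with 7.25 and 6.67 at 24 h and 6.29 and 4.24 in untreated cells. mghv-miR-M1-6 had a mean of 5.83 at 12 h (5.35 and 6.31), with 4.81 and 3.87 at 24 h and the floor in untreated cells. It was detected on 1 of the 12 h arrays and on neither 24 h array.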

How the results depend on the processing

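The numbers of risers and fallers, 8 and 48, became 63 and 41 under quantile normalization, 47 and 46 with the percentile over all mouse miRNAs, 0 and 23 without scaling, 1 and 22 with normexp, 3 and 42 with the software's total gene signal, and 0 and 18 of 150 in the authors' deposited log2 table. They were 4 and 44 with values at the floor left out, 4 and 8 of the 95 miRNAs detected on all arrays, and 0 and 0 on the 4 wild type tunicamycin arrays alone. With the replicate block on 12 arrays they were 9 and 45, with the scan and replicate block on the 8 tunicamycin arrays 0 and 5, and with a replicate block within each slide, chosen after seeing the data, 7 and 43. The 5 were miR-466d-3p, miR-466j, miR-466l, miR-669i and miR-706. Leaving out 1 array gave 1 to 26 risers and 26 to 62 fallers. The 0 calls between genotypes became 2 with normexp, 7 with the total gene signal, and 0 to 43 with 1 array left out. Where an array was left out, the lone array of its group was assumed to vary like the other groups. The cause of these changes was not tested.

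Differences that changed sign without scaling were miR-24 (-0.21), miR-93 (-0.16), miR-30a (-0.065) and miR-31 (-0.065). With the total gene signal they were miR-25 (-0.66) and miR-30a (-0.13). In the deposited table they were miR-24 (-0.22), miR-25 (-1.07), miR-30a (-0.54), miR-31 (-0.074), miR-93 (-0.0025), let-7d* (1.88) and miR-466h (0.79). miR-434-3p was 0.13 under quantile normalization. miR-128, at the floor throughout, was 2.47 with a floor of 1. The cause was not tested. Signal over background limits the fallers, of which 26 of the 48 were detected on neither 24 h array.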

Other observations

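miR-503 of the X-linked miR-322 cluster and the hypoxia-induced miR-210 were at the floor in treated wild type cells. miR-322 was at 6.02 and 6.42 at 12 h and at 6.51 and 5.45 at 24 h, and its arrays overlapped. miR-503 and miR-210 were above the floor on both untreated arrays, at 4.001 and 4.27 and at 4.85 and 4.81. Of the NF-kB induced miRNAs 0 of 3 passed, with miR-155 at 5.80 and 5.68 at 12 h and at 6.18 and 5.99 at 24 h. The tRNA-derived miR-720 was at 11.81 and 11.57 at 12 h and at 12.46 and 11.88 at 24 h (difference 0.48, SE 0.22, adjusted p = 0.174). miR-1224 was at 9.03 and 8.97 at 12 h and at 8.95 and 10.76 at 24 h, so its difference of 0.86 came from the second replicate (SE 0.50, adjusted p = 0.269).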
